A study of Mus musculus with 26 samples.

Results

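The Ccl3 and Ccl4-high microglia of the P14 mouse cortex were 143 of 29452 microglia in 6 sorted libraries, and of 67847 cells in the 18 sorted libraries of the series. A barcode was kept when it held 500 genes or more, with no more than 20% of its UMIs (unique molecular identifiers, 1 for each captured transcript) from mitochondrial genes. A barcode was taken as a microglia when Csf1r and C1qa together had at least 2 UMIs and F13a1 and Ms4a7, genes of border-associated macrophages, together had at most 1. Microglia in which Ccl3, Ccl4, Il1b and Tnf summed to at least 8 UMIs made up the group, and the other 29309 microglia are the cells it is set against. The readout itself therefore chose these cells: their high Ccl3 and Ccl4 is a description, and every gene compared with the other microglia is given without a test.

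All mice were wild type, of the strain C57Bl/6N. Dams received poly(I:C), a double-stranded RNA analogue that provokes an antiviral response (maternal immune activation, MIA), or saline at E12.5, into the peritoneum. The primary somatosensory cortex (S1) of pups was taken at P14, freed of meninges, homogenised with a pestle and sorted for Cd11b, Cx3cr1 and low Cd45. There were 4 saline and 2 MIA libraries. Saline 1, saline 2, MIA 1 and MIA 2 are labelled as mixed sex and, by the study's sample list, pool 1 male and 1 female pup, while saline 3 is a female and a male library of 1 pup each. The study counts its P14 mice differently in another place, so the number of pups per mixed library is uncertain. The spread between libraries thus includes the capture. The 6 libraries held 3809 to 5822 cells past the filter and 22187944 to 32527293 UMIs in them. For a description across ages, sorted libraries of E13 and E15 embryos were read too. E13 and E15 are the ages in the labels, and the study places both collections somewhat later. There were 3 saline and 3 MIA libraries at each of these ages, all labelled as mixed sex, with the injection at E12.5.

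Ccl3 and Ccl4 are chemokines, secreted proteins that attract monocytes, T cells and other leukocytes through chemokine receptors. Il1b and Tnf are cytokines that microglia make in response to pathogens and injury, Il1b after processing by the inflammasome, and the transcription factor NF-kB drives the transcription of all 4 genes. Immediate early genes such as Egr1, Fos and Atf3 are transcribed within minutes of many stimuli, which include the handling of tissue during dissociation.

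Some barcodes were shared between libraries. At P14, saline 1 and MIA 1 had 114 barcodes in common, and the female and the male library of saline 3 had 239. The other 13 P14 pairs had 0 to 11, and 2.64 to 4.86 were due by chance over all pairs. The shared barcodes came to 873 cells, of which 7 were in the Ccl3 and Ccl4-high group. In the female library 36 microglia carried Y-linked transcripts without Xist, and 1 did so once shared barcodes were removed. The male library held 72 with Xist and no Y-linked transcript, and 1 after removal. Counts of genes are also given without the shared barcodes where their calls changed. Among the embryonic libraries, saline 1 and MIA 1 of E13 shared 67 barcodes, and saline 2 and MIA 2 of E13 shared 33. Saline 3 and MIA 3 of E15 shared 157. The embryonic values were not recomputed without them.

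The label of an inflammatory microglia was met in part. Ccl4 gave 2974 of the UMIs of the 4 genes (67.1%) and Ccl3 1372, whereas Il1b gave 43 and Tnf 40. Ccl3 was found in 133 of the 143 cells (93.0%) and Ccl4 in 128 (89.5%). Tnf was found in 26 (18.2%) and Il1b in 3 (2.10%). A single cell of MIA 2 held 32 of the 43 Il1b UMIs, and 116 cells had neither Il1b nor Tnf. With Ccl3 and Ccl4 alone, 138 of the 143 cells would have been chosen. The cells are therefore called here by the chemokines that define them.

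Microglial genes were present in nearly all of them. Csf1r and C1qa, whose sum was part of the rule, were each found in 143 cells, and P2ry12 in 141. Markers of other cells were read in the 971697 UMIs of the group. The 5 neutrophil genes had 0 UMIs, the 6 lymphocyte genes 1 and the 5 monocyte genes 4, with Ly6c2, Ccr2, Hp and Napsa at 0. Of the 10 genes of border-associated macrophages, Lyve1, Cd163, Clec10a and F13a1 were at 0, the last of which the rule held low, and the list summed to 145 to 221 CPM (UMIs of a gene scaled to the UMI total of the cells in that library) per library against 231 to 283 in other microglia. Neuronal genes had 23 UMIs and astrocyte genes 93, and the astrocyte sum was lower than in other microglia in 6 of 6 libraries. The 5 genes of the oligodendrocyte lineage had 81 UMIs and a sum of 18.3 to 388 CPM per library, against 50.3 to 98.9 in other microglia. It was higher in 4 of 6 libraries and highest in saline 1 (log2 ratio 2.20), and its part in the other values of saline 1 was not tested. No cell of the group was among the 1213 called as doublets.

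The amount of Ccl3 and Ccl4 varied widely within the group. The summed UMIs had a median of 17 and reached 297, with 64 cells at 8 to 15 UMIs, 47 at 16 to 31 and 32 above that. There was no gap at the threshold: 26 microglia had a sum of 6 and 23 a sum of 7, just outside, and 19 had 8 and 15 had 9, just inside. Ccl4 exceeded Ccl3 in 91 cells, Ccl3 exceeded Ccl4 in 47, and 5 were equal. Both were found in 118 cells and 1 of the pair in 25. Over the 143 cells the Spearman rho of the 2 UMI counts was 0.022, a value that selection on their sum shapes.

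**Figure D1:**
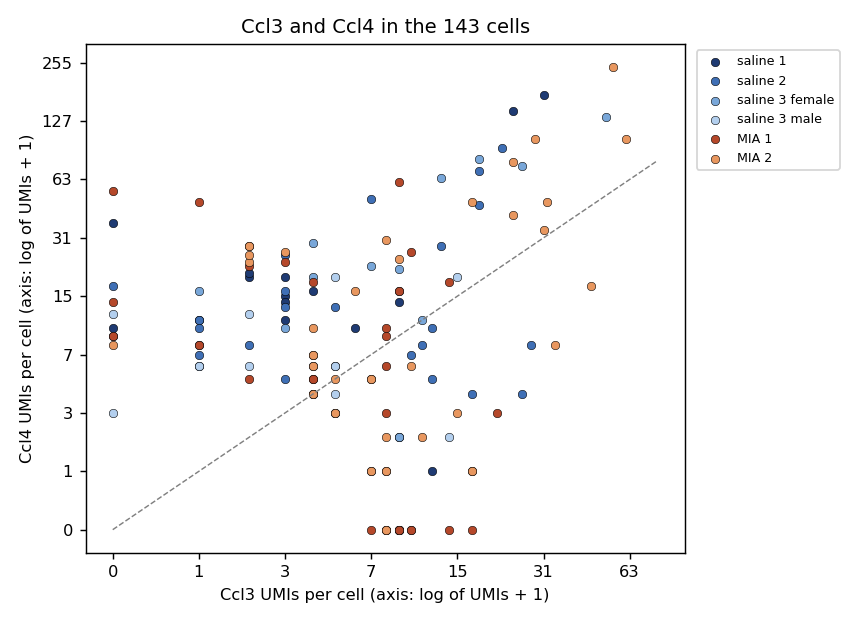
UMIs of Ccl3 (x) and Ccl4 (y) in each of the 143 cells, both on log axes of UMIs + 1, coloured by library; the dashed line marks equal counts. The points spread over both axes, with 91 cells above the line, 47 below it, and 25 with only 1 of the 2 chemokines.

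Summed over the cells of each library, Ccl4 stood at 7156 CPM in saline 1, 2145 in saline 2, 4598 in saline 3 female, 1041 in saline 3 male, 2325 in MIA 1 and 3338 in MIA 2. Other microglia had 3.18 to 7.27 CPM. Ccl3 stood at 1675, 1070.1, 1778, 786, 1169 and 1833 CPM in the same order, with 7.69 to 12.1 in other microglia. Both groups of libraries overlapped for each gene, and saline 1 and saline 3 male marked the ends for Ccl4. Tnf was at 55.4, 22.2, 0, 128, 37.9 and 36.8 CPM, against 2.09 to 3.51. Il1b was at 0 in the 4 saline libraries and at 63.2 and 110.4 CPM in MIA 1 and MIA 2, where 1 cell held all 10 UMIs of MIA 1 and 1 cell 32 of the 33 of MIA 2. The ratio of Ccl4 to Ccl3 UMIs was 4.27 in saline 1, 2.00 in saline 2, 2.59 in saline 3 female, 1.33 in saline 3 male, 1.99 in MIA 1 and 1.82 in MIA 2.

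Free RNA in droplets can place UMIs in cells that do not express a gene, so other barcodes were counted. Of 345 P14 barcodes that were not microglia, 3 had a Ccl3 UMI (0.870%) and 0 had Ccl4, which at a limit of 3 counts allows a share of up to 0.870%, at a median depth of 1766 UMIs. To compare cells at the same depth, each was thinned to 2000 UMIs, which left 139 of the group and 27659 other microglia and left out 4 and 1650. Ccl3 was then found in 77.0% of the group and 1.53% of other microglia, and Ccl4 in 76.3% and 0.738%. Without thinning, the shares were 93.0% and 3.30% for Ccl3, and 89.5% and 1.68% for Ccl4.

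The genes lie in pairs or alone on the genome. In GRCm38, Ccl3 is at chr11:83647844-83649355 on the minus strand and Ccl4 at chr11:83662584-83664683 on the plus strand, with 13228 bases between them and no overlap. Il1b is at chr2:129364570-129371139 (minus strand) and Tnf at chr17:35199381-35202007 (minus strand). Ccl2, the gene with the next highest ratio to other microglia, is on the same chromosome as Ccl3 and Ccl4, at chr11:82035571-82037453 (plus strand).

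Beside the genes of the rule, part of the immediate early genes (12 of 24), of the other chemokines (4 of 8) and of the genes of amyloid-associated microglia (8 of 15) were higher in the group in 6 of 6 libraries, as were 6.3% of all genes compared. Among members at 10 CPM or more in other microglia these were 7 of 14, 3 of 4 and 8 of 10. Of the 530 genes that make up the 6.3%, 60 were below that level in other microglia. Among 8407 genes with a mean of at least 10 CPM in either set, 58 were at least 2-fold higher in 6 of 6 libraries, 0.69% of those compared, and 56 of them were not genes of the rule. At least 2-fold lower in 6 of 6 libraries were 14, or 0.167%. Without the shared barcodes 57 were higher, 52 of them among the 58, and 18 lower, 12 of them among the 14. Of the 8407 genes, 435 were at 10 CPM or more only in the group and so had to be higher on average, among them 25 of the 58. Counts of list members here and below are a description for this reason as well. Medians are given over the members at 10 CPM or more in other microglia. Over all 8407 genes the median log2 ratio of the group to other microglia was -0.31. It was -0.33 over the 7972 at 10 CPM or more in other microglia, and -0.14 over the 3654 genes at 50 CPM or more. One UMI in the group was worth 3.34 to 13.8 CPM in a library, and the part of low counts in these medians was not tested.

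**Figure D2:**
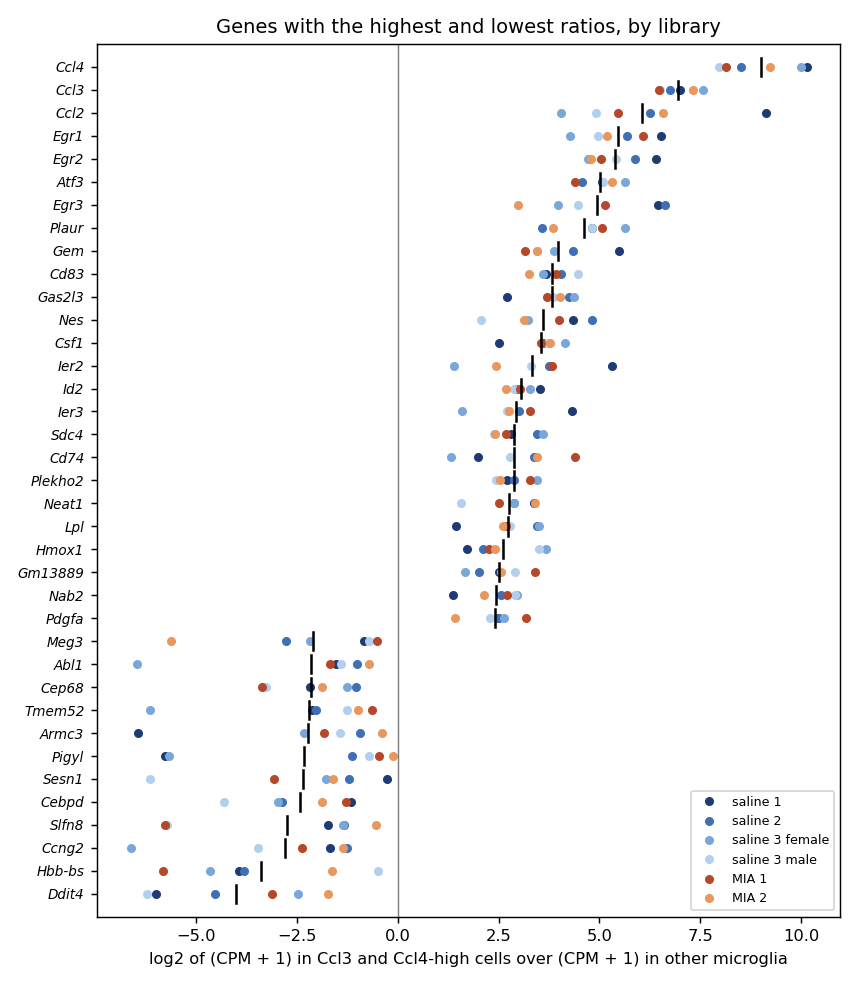
Log2 ratio of CPM + 1 in the Ccl3 and Ccl4-high cells to CPM + 1 in the other microglia of the same library, for the 25 highest and the 12 lowest genes; points are libraries and bars their mean. All points of the 25 genes lie above 0; the 12 low genes spread widely because several libraries are at 0 for them.

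Ccl2, a chemokine that attracts monocytes through Ccr2, had the highest ratio after Ccl3 and Ccl4. It stood at 2616 CPM in saline 1, 599 in saline 2, 74.5 in saline 3 female, 109.6 in saline 3 male, 309.5 in MIA 1 and 508 in MIA 2, against 2.67 to 6.90 in other microglia. Every library was above every one of the other microglia, but the levels differed widely among libraries, and saline 1 was far above the rest. The mean log2 ratio was 6.06 ± 1.76 (SD, n = 6 libraries), and 53 of the 143 cells held a Ccl2 UMI. Of the 11 other chemokines listed, 8 passed 10 CPM, and 4 of these, Ccl2, Ccl6, Ccl12 and Cxcl16, were higher in 6 of 6 libraries. Over all genes 6.3% were higher in 6 of 6 libraries at any size and 13.7% lower. Ccl12 had 155 to 997 CPM against 88.1 to 133 (log2 ratio 1.74 ± 0.80). The ratio of Ccl6 was 1.31 ± 0.53 and that of Cxcl16, a membrane-bound chemokine, 1.21 ± 0.61. Cxcl1, Cxcl2 and Ccl22 had no UMI in the group. Of the 8 genes, Ccl2 and 3 more reached 10 CPM only in the group, and the median log2 ratio of the other 4 was 1.26.

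Cytokines and growth factors were mixed. Csf1, a ligand of the receptor Csf1r on which microglia depend, stood at 69.2 CPM in saline 1, 124 in saline 2, 186 in saline 3 female, 128 in saline 3 male, 139 in MIA 1 and 150.5 in MIA 2, against 8.82 to 11.3 in other microglia. All 6 libraries were well above the others, with a mean log2 ratio of 3.55 ± 0.55. Il1a (1.42 ± 0.93) and Osm (1.31 ± 1.15) were also higher in 6 of 6 libraries, Osm from 21 UMIs. Il18, a cytokine that the inflammasome releases, was lower in 6 of 6 (-0.38 ± 0.36). Il6, Il12b, Il10 and Lif had no UMI in the group. Of 6 genes of this list at 10 CPM or more, 3 were higher and 1 was lower, against 6.3% and 13.7% of all genes. The median was 0.62 over the 4 at 10 CPM or more in other microglia, which leaves out Osm.

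Among receptors for the 4 ligands, of 5 measured at 10 CPM or more, 0 were higher and 2 were lower in 6 of 6 libraries, against 13.7% of all genes lower. The median log2 ratio of the 4 that reached 10 CPM in other microglia was -0.61, where that of all genes was -0.33. Ccr1, a receptor of Ccl3, was among those lower, at 10.0 to 93.1 CPM against 75.6 to 138 in other microglia (-1.49 ± 1.10). Il1r1 and Il1r2 had no UMI.

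Of the 14 NF-kB subunits and feedback genes at 10 CPM or more, 2 were higher and 0 were lower in 6 of 6 libraries. Of all genes, 6.3% were higher and 13.7% lower. Both of the 2 reached 10 CPM only in the group, and the median log2 ratio of the 10 genes at that level in other microglia was 0.16. These 2 were Nfkbiz (1.93 ± 1.07, 30 UMIs) and Nfkbid (1.69 ± 1.28, 19 UMIs), which encode nuclear inhibitor-like proteins. Nfkbia, the inhibitor that NF-kB itself induces, stood at 374, 147, 55.8, 338, 114 and 197 CPM in saline 1, saline 2, saline 3 female, saline 3 male, MIA 1 and MIA 2, against 70.7 to 129. It was higher in 5 of 6 libraries and lower in saline 3 female (0.89 ± 1.03). The subunits Nfkb1 (0.04 ± 0.39) and Rel (0.09 ± 0.56) were higher in 4 libraries and lower in 2.

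Among further targets of NF-kB, Cd83, a surface protein of activated antigen-presenting cells, stood at 457 CPM in saline 1, 644 in saline 2, 400.2 in saline 3 female, 722 in saline 3 male, 562 in MIA 1 and 331 in MIA 2. The other microglia were at 31.9 to 38.0 CPM, and the log2 ratio of 3.83 ± 0.42 varied little between libraries. Of 10 genes of this list at 10 CPM or more, 3 were higher in 6 of 6 libraries (Cd83, Plaur and Bcl2a1b) and 0 lower, against 6.3% and 13.7% of all genes. The median was 0.47 over the 9 at 10 CPM or more in other microglia. Plaur, the urokinase receptor, reached that level only in the group and had a ratio of 4.63 ± 0.78. Icam1 was higher in 5 of 6 (0.51 ± 0.61), and Ptgs2, Cd40 and Clec4e had no UMI. Of 5 inflammasome genes 0 were higher and 0 lower in 6 of 6 libraries. The sensor Nlrp3 stood at 31.6 to 82.2 CPM against 61.4 to 79.6 (-0.23 ± 0.59).

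Of 24 immediate early genes at 10 CPM or more, 12 were higher and 1 (Rhob) was lower in 6 of 6 libraries, against 6.3% and 13.7% of all genes. Of the 12, 8 were at least 2-fold higher in each. In other microglia 10 of the 24 were below 10 CPM, among them Egr1, Egr2, Egr3, Fos and Gem. Of the 14 above it, 7 were higher and 1 was lower, with a median log2 ratio of 0.70. Egr1, a zinc-finger transcription factor, was at 719.7 CPM in saline 1, 329 in saline 2, 112 in saline 3 female, 201 in saline 3 male, 366 in MIA 1 and 174 in MIA 2, against 3.78 to 6.85. Saline and MIA libraries overlapped, and all lay above the other microglia (log2 ratio 5.45 ± 0.81). Atf3, a stress-induced factor, was at 484, 293, 512, 256, 291 and 318 CPM in the same order, against 6.56 to 13.5 (5.01 ± 0.47). Atf3 varied less between libraries than Egr1 and was found in 91 of the 143 cells. Egr2 had a ratio of 5.37 ± 0.67, Egr3 of 4.94 ± 1.42 and Fos of 3.74 ± 1.38. Ier2 had 3.34 ± 1.34 and Gem, a small GTPase, 3.96 ± 0.86. Nab2, which binds Egr proteins and restrains them, was also high (2.44 ± 0.61).

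Other members of that list did not move so evenly. Jun was at 214 to 512 CPM against 136 to 244 (0.77 ± 0.51) and Junb at 149 to 706 against 143 to 176 (0.92 ± 0.77), each higher in 5 of 6 libraries. The sum of all 26 genes was 3991 ± 1409 CPM in the group and 2053 ± 122 in other microglia. Since handling of tissue induces these genes, the heat shock genes were read beside them. Of 9 at 10 CPM or more, 4 were higher in 6 of 6 libraries, Hspa8, Hsp90ab1, Hspe1 and Hspd1, with ratios of 0.40 to 1.16, where 6.3% of all genes were higher. The sum of the heat shock list was 4211 ± 948 CPM against 2773 ± 146, and higher in 6 of 6 libraries. Hspa1a, the form that heat and stress induce, had 22 UMIs in 2 cells. The part of dissociation in these levels was not tested. Among the 345 barcodes that were not microglia, Egr1 was found in 11.3% and Egr3 in 7.25%, without thinning. At 2000 UMIs Egr1 was found in 28.1% of the group and 0.597% of other microglia. Egr3 was then found in 9.35% of the group, near its share in the 345 barcodes, and in 0.130% of other microglia.

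Genes of microglia around amyloid plaques and developing axon tracts were higher in part. Of 15 at 10 CPM or more, 8 were higher and 0 lower in 6 of 6 libraries, 4 of them at least 2-fold, where 6.3% of all genes were higher. These 8 were all among the 10 genes at 10 CPM or more in other microglia, whose median was 1.31. Apoe, a lipid carrier, stood at 4263 CPM in saline 1, 6847 in saline 2, 5147 in saline 3 female, 5846 in saline 3 male, 4946 in MIA 1 and 5505 in MIA 2, against 1366 to 1712. The log2 ratio was 1.76 ± 0.21, and the libraries did not overlap with the other microglia. The tetraspanins Cd9 (1.85 ± 0.33) and Cd63 (1.73 ± 0.43) and the protease Ctsb (1.20 ± 0.31) followed, and Lpl, lipoprotein lipase, had 2.74 ± 0.74. Trem2, a lipid receptor, was close to equal at 1799 to 2318 CPM against 1710.1 to 2037. Spp1 was found in 13 cells, of which 1 held 82.0% of its UMIs, and Itgax in 8.

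Some homeostatic genes, which mark mature resting microglia, were lower but still present. Of 19 listed, 0 were higher and 13 were lower in 6 of 6 libraries, against 13.7% of all genes lower, and none was 2-fold lower in each. The median log2 ratio was -0.38, close to the -0.33 of all genes at 10 CPM or more in other microglia. It was further below the -0.14 of the genes at 50 CPM or more in either set. No reference matched to the levels of this list was made. Tmem119 stood at 719.7 CPM in saline 1, 684 in saline 2, 605 in saline 3 female, 548 in saline 3 male, 897 in MIA 1 and 909.7 in MIA 2, against 1401 to 1545. The purinergic receptor P2ry12 stood at 2653 to 3709 CPM against 5840.5 to 6415. No library overlapped with the other microglia for either gene, and the ratios were -1.02 ± 0.27 and -0.81 ± 0.19. The transcription factor Sall1 (-0.94 ± 0.37) and Slc2a5, a fructose transporter (-0.90 ± 0.35), were also lower. At 2000 UMIs Tmem119 was found in 70.5% of the group and 92.0% of other microglia.

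**Figure D3:**
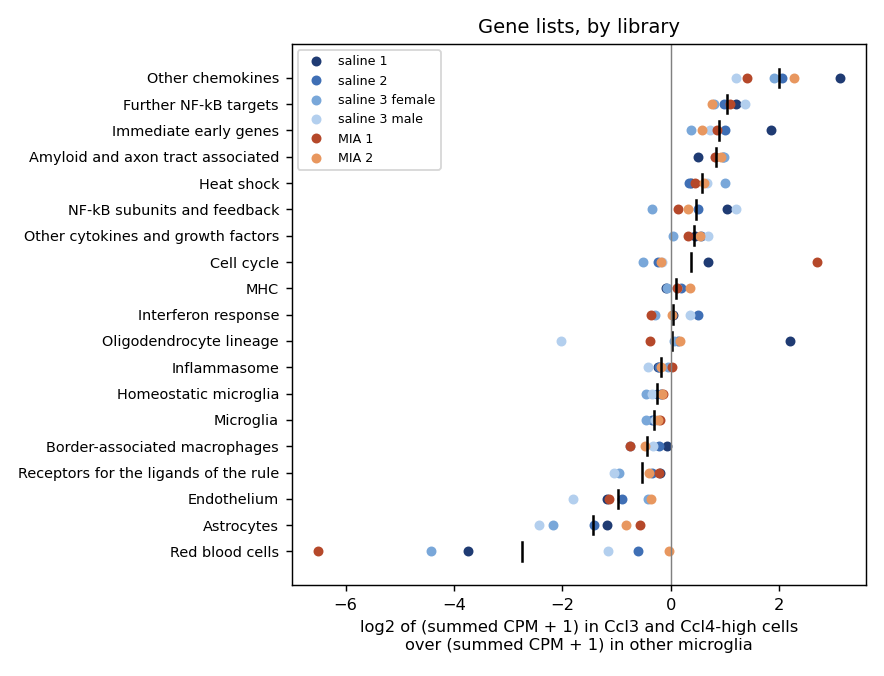
Log2 ratio of the summed CPM of each gene list in the Ccl3 and Ccl4-high cells to that in other microglia, by library, with the mean as a bar. Other chemokines, other cytokines, further NF-kB targets, immediate early genes, heat shock genes and amyloid genes lie above 0 in 6 of 6 libraries. Homeostatic genes lie below 0 in 6 of 6, as do those of receptors, microglia, border-associated macrophages, astrocytes, endothelium and red blood cells. Red blood cell and cell cycle genes spread from few UMIs.

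In the lists for interferon response, antigen presentation and cell cycle, 1 gene each was higher, where 6.3% of all genes were. Of 7 interferon response genes at 10 CPM or more, 1 (Bst2, 0.50 ± 0.30) was higher in 6 of 6 libraries, and the list summed to 313 ± 81.5 CPM against 295 ± 19.4. Of 4 genes of antigen presentation by MHC, 1 was higher, Cd74, the invariant chain of MHC class II, at 41.5, 133, 27.9, 54.8, 309.5 and 171 CPM against 7.14 to 14.6 (2.88 ± 1.11). Its UMIs came from 33 cells, and 1 cell held 23.9% of them. Of 7 cell cycle genes 1 was higher, Pcna (0.95 ± 0.51). Among further high genes outside the lists were Id2, an inhibitor of helix-loop-helix factors (3.05 ± 0.30), Sdc4, a proteoglycan (2.89 ± 0.52), Hmox1, which degrades heme (2.61 ± 0.79), Nes (3.60 ± 0.99), Neat1 (2.77 ± 0.68), Plekho2 (2.88 ± 0.41) and the growth factor Pdgfa (2.41 ± 0.58). The complement receptors C3ar1, found in 118 cells (432 CPM against 89.4, log2 ratio 2.24), and C5ar1 (175 CPM against 39.2, ratio 2.04), were also higher in 6 of 6 libraries and were named after their values were seen.

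The 12 lowest genes rested on few counts. Cebpd, a transcription factor of the acute phase, was at 96.9 CPM in saline 1, 26.6 in saline 2, 27.9 in saline 3 female, 9.13 in saline 3 male, 88.4 in MIA 1 and 56.9 in MIA 2, against 199.9 to 226. It was lower in every library, with a ratio of -2.42 ± 1.20 from 48 UMIs in 35 cells. Ddit4, a stress-induced inhibitor of mTOR signalling, had 30 UMIs in the group and other microglia ranged from 22.2 to 313 CPM between libraries. Ccng2 had 29 UMIs (23.9 CPM against 104) and Sesn1 25 (25.4 against 82.5). Slfn8, Pigyl, Armc3, Tmem52, Cep68, Abl1 and Meg3 had 20 to 37 UMIs, and Hbb-bs, a globin of red blood cells, had 5. Where a library was at 0 for a gene, its ratio depends on the pseudocount and is no bound.

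The levels of these genes followed the summed UMIs of the 4 genes below the threshold too, among cells that the rule left out. Over microglia with a sum of 0, 1, 2 to 3 and 4 to 7, Atf3 was at 6.92, 27.5, 72.5 and 146 CPM, and at 188, 285 and 716 in those with 8 to 15, 16 to 31 and 32 or more. Egr1 was at 3.57, 11.0, 41.8 and 84.9 CPM below the threshold and at 114, 422 and 428 above it. Ccl2 was at 2.78, 7.24, 36.7 and 149, then 345, 482 and 1129. P2ry12 was at 6131, 5305, 3986 and 3512 CPM below the threshold and at 3629, 3768 and 2867 above it. Apoe was at 1512, 2372, 3388 and 4597, then 4760, 6882 and 5749. The threshold of 8 thus lay within a gradual rise of Atf3, Egr1 and Ccl2, while P2ry12 and Apoe changed little across it. The median UMIs per cell were 5236 at a sum of 0 and 6138 to 6648.5 in the bins from 2 to 3 upward, and the part of depth in these levels was not tested.

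**Figure D4:**
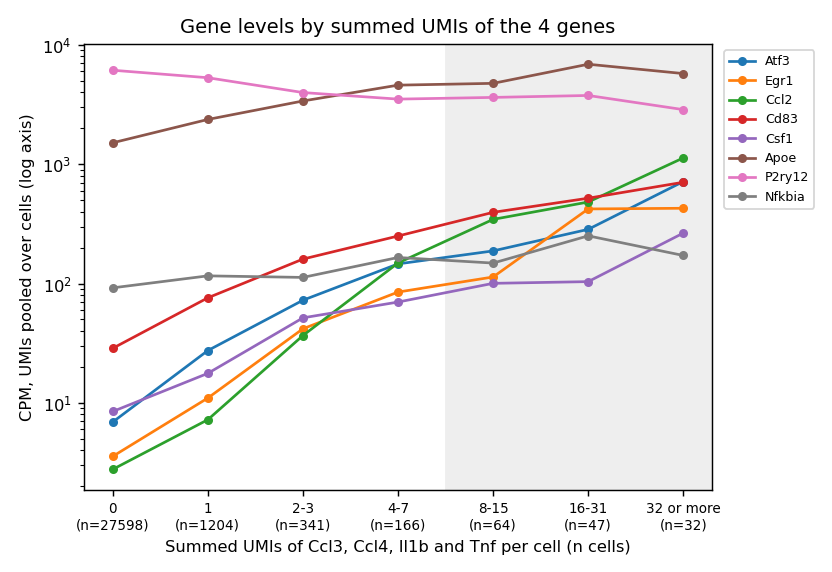
CPM of 8 genes (log axis) in P14 microglia grouped by the summed UMIs of Ccl3, Ccl4, Il1b and Tnf per cell, all 6 libraries pooled, with the number of cells in each bin; the shaded bins are the Ccl3 and Ccl4-high cells. Atf3, Egr1, Ccl2 and Cd83 rise across the bins. P2ry12 is at 6131 CPM in the first bin and 2867 in the last, with little change between 4 to 7 (3512) and 16 to 31 (3768).

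Of the 25 highest genes, 13 had a promoter window, and 4 of these held a motif that was searched. RefSeq windows from 250 bases before to 50 after the transcription start (GRCm38.p6) were matched by symbol. The 13 include Ccl3, a gene of the rule. The kappaB consensus, the binding motif of NF-kB, on either strand, was in 3 of the 13, Csf1, Ier3 and Sdc4, in 0 of 9 windows of the 12 lowest genes, and in 4.51% of 32851 windows of the same length. TGANTCA, the motif of AP-1 (the dimer of Fos and Jun proteins), was in 1 of the 13, Plaur, in 1 of the 9, Hbb-bs, and in 7.81% of all windows. TGACGTCA, the cyclic AMP element, was in 0 of the 13, in 1 of the 9, Meg3, and in 1.79% of all windows. The CArG consensus was in 0 of the 13, 0 of the 9 and 1.63% of all windows. TATAAA, on the strand of the gene, was in 0 of the 13, 1 of the 9 and 8.32% of all windows. The windows of Ccl3, Il1b and Tnf held neither the kappaB nor the AP-1 letters, and a match is a description of the sequence only. The 4 windows of the highest genes with a match are shown 5′ to 3′ on the strand of the gene, with the motif in capitals. They are Csf1 (chr3:107760420-107760719, minus strand, motif 154 bases before the start), Ier3 (chr17:35821463-35821762, plus strand, 92 before), Sdc4 (chr2:164443139-164443438, minus strand, 82 before) and Plaur (chr7:24462233-24462532, plus strand, 69 before).
Csf1: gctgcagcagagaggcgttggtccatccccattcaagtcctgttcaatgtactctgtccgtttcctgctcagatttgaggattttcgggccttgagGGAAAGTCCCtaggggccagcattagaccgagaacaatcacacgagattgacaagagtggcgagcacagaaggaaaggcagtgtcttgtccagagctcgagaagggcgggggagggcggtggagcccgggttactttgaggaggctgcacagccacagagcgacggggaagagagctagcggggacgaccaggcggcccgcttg
Ier3: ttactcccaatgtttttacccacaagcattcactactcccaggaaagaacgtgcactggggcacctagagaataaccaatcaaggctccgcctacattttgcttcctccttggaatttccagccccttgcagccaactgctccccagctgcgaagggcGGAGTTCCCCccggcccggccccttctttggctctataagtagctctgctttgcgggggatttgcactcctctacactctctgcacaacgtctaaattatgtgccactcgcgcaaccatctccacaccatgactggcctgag
Sdc4: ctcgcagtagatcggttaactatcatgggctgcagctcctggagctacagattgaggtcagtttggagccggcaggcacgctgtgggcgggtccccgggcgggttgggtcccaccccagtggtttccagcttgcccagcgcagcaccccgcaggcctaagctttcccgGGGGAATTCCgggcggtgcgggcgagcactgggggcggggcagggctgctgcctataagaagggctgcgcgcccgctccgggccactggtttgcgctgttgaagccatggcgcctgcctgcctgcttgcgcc
Plaur: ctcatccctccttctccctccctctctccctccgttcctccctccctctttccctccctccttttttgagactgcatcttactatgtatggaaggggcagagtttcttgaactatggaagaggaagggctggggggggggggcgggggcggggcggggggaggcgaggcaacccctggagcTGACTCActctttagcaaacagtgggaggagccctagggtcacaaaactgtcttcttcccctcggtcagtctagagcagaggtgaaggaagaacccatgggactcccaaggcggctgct

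The share of Ccl3 and Ccl4-high cells was higher on average in MIA than in saline, by less than the spread between libraries. Of the microglia they were 0.296% in saline 1 (17 cells, 95% exact interval 0.172 to 0.473), 0.750% in saline 2 (28 cells, 0.499 to 1.08), 0.367% in saline 3 female (17 cells, 0.214 to 0.587) and 0.312% in saline 3 male (15 cells, 0.174 to 0.513). MIA 1 had 0.483% (27 cells, 0.319 to 0.702) and MIA 2 0.790% (39 cells, 0.562 to 1.08). Saline 2 lay within the range of the MIA libraries and the other 3 saline libraries below it. The mean was 0.637% ± 0.217 (SD, n = 2) in MIA and 0.431% ± 0.215 (n = 4) in saline, a difference of 0.206 percentage points with p = 0.267 in a two-sided exact permutation test over libraries. With 4 against 2 libraries the smallest p this test allows is 0.133, so it could not pass 0.05. The female and male libraries of saline 3 have the same replicate number in the labels but count as 2 here. With both joined, the difference was 0.175 percentage points and p was 0.4 in the same permutation test. The libraries with the highest shares also had the deepest cells: median UMIs of other microglia were 6832.5 in saline 2 and 6435 in MIA 2, against 3693.5 to 5891 in the other 4. Among those 4 the order did not hold: MIA 1, at 4686, had a higher share than saline 3 male, at 5891. With a rule scaled to depth (at least 0.2% of the UMIs of the cell and at least 3 UMIs) the means were 0.488% and 0.342% and p was again 0.267. By that rule saline 2 (0.482%) and MIA 2 (0.547%) were still the highest, and the part of depth in the shares was not tested. The intervals cover counting error only.

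**Figure D5:**
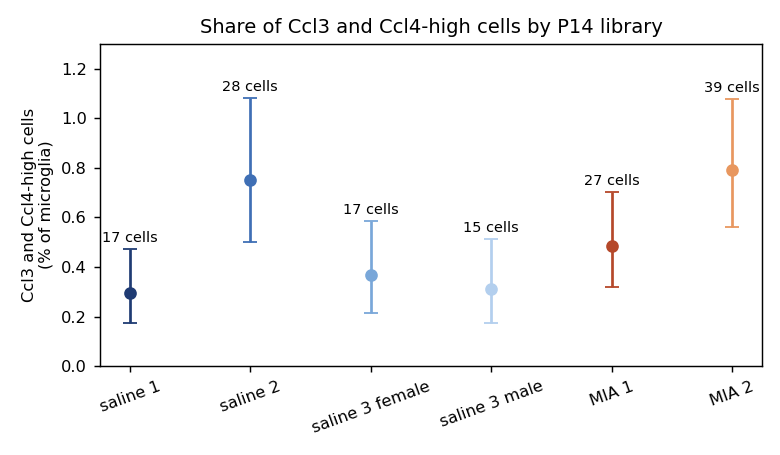
Share of P14 microglia that were Ccl3 and Ccl4-high in each library (points, in percent) with 95% exact binomial intervals and the number of cells. Saline 2 (0.750%) and MIA 2 (0.790%) are the highest, and the 4 saline and 2 MIA libraries overlap.

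The shares of the sexes were compared within libraries. In the 4 libraries labelled as mixed, cells were called male or female from Y-linked transcripts and Xist. The male share minus the female share was 0.305 percentage points in saline 1, 0.0312 in saline 2, -0.215 in MIA 1 and 0.687 in MIA 2. It was higher in males in 3 of 4 libraries, with means of 0.624% and 0.422%. The difference was 0.202 ± 0.387 (SD, n = 4, two-sided exact permutation p = 0.375, where the smallest p possible is 0.13). By the rule scaled to depth it was 0.0822. Calls in the group were few: 4 female and 6 male cells in saline 1, and 14 and 7 in saline 2. MIA 1 had 11 and 5, and MIA 2 had 4 and 20. Microglia with neither kind of transcript numbered 1765 in the male library of saline 3 and 286 in the female one. The part of depth in the calls was not tested.

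No gene of the group passed the test for MIA against saline. UMIs were summed over the cells of each library, and edgeR's quasi-likelihood test called 0 of 2667 genes (0.0%) at an adjusted p under 0.05. At an unadjusted p under 0.05 there were 126, of which 48 were higher and 78 lower, and DESeq2 also called 0, with 47 at that level. In counts simulated with these library sizes, 94 of 200 2-fold changes (47%) and 176 of 200 4-fold changes (88%) were found. The spread of each simulated gene followed its level alone. Genes that vary more, as where 1 cell holds most UMIs, were not simulated, so these rates may be too high for them. Cd74 had the smallest p, at 41.5, 133, 27.9 and 54.8 CPM in the saline libraries and 309.5 and 171 in MIA. The groups did not overlap, from 3, 30, 3 and 6 UMIs in saline and 49 and 51 in MIA. The 1 cell with the largest part of these UMIs held more than any saline library, so the gap depends on that cell. The log2 ratio of MIA to saline was 1.57 ± 0.38 (SE), and the adjusted p was 0.961 by edgeR. The log2 ratio was 2.47 without saline 2, 1.12 without MIA 1 and 0.91 without the 3 cells named with the interaction below, none of which passed. Cd74 did pass in edgeR with no filter on low counts (1.64, adjusted p 0.000566) and without MIA 2 (2.01, adjusted p 0.00168). Zfp638 (-1.12), Gm26917 (-3.20) and Kdm6b (-1.51) were among the genes that followed, with the same adjusted p. Gm26917 passed in edgeR with no filter on low counts, without saline 1 and without MIA 1, was at -1.25 without saline 3 male, and without the shared barcodes it had too few counts for the test. In other microglia 0 of 13294 genes were called by edgeR, with 427 at an unadjusted p under 0.05.

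The chemokines that define the cells are given as a description, since the cells were picked for them. The log2 ratio of MIA to saline was 0.20 ± 0.24 (SE) for Ccl3 and -0.38 ± 0.40 for Ccl4, and neither kept its sign: Ccl3 was at -0.14 without MIA 2 and Ccl4 at 0.16 without saline 1. Of the 24 gene lists, 16 had a tested gene and none of these a called one, while 8 had no gene with enough counts. Immediate early genes had a median log2 ratio of -0.35 over 14 tested, with 2 positive and 12 negative, and heat shock genes -0.15 over 7, all negative. Homeostatic genes had 0.11 over 19, with 13 positive, and the median of all 2667 genes was -0.02. These sign counts are a description, as genes of a list may vary together within a library. The list sums, as log2 ratios to other microglia, overlapped for immediate early genes: 0.85 in MIA 1 and 0.58 in MIA 2, between saline 3 female (0.38) and saline 1 (1.84). Heat shock sums overlapped too: 0.45 and 0.62, between saline 2 (0.34) and saline 3 male (0.67). Homeostatic sums did not, at -0.15 in each MIA library and -0.45 to -0.18 in saline, a narrow gap (-0.153 in MIA 2, -0.180 in saline 1). Nor did the sums of the list of microglial markers, which shares genes with it, or of astrocyte genes. Astrocyte sums were at -0.56 and -0.83 in MIA and -2.43 to -1.18 in saline. With 4 against 2 libraries, a share of 0.133 of all orders has no overlap, so these gaps are a description. Of 4 genes that the study lists for P14 microglia, chosen on these samples, Gm42418 (log2 ratio -0.58 ± 0.19, SE) and Lars2 (-0.23 ± 0.34) had an adjusted p of 0.961 by edgeR. Gm42418 was at -0.36 without the shared barcodes, and Lars2 changed sign to 0.32 without saline 2. Hes1 had 23 UMIs in the group and Mmp12 1, too few for the test.

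The difference between the response of the group and that of other microglia was tested as an interaction in edgeR over 12273 genes, and 5 passed (0.0407%), with 422 at an unadjusted p under 0.05. Cenpf, Mki67 and Ube2c, genes of dividing cells, had log2 interactions of 6.16, 4.12 and 4.76 (adjusted p of 4.34e-05, 0.000415 and 0.000415). One cell of MIA 1 held 79.2%, 77.3% and 87.5% of their UMIs in the group. Il1b was the fourth by p, but the cells were picked for it, so that its call is no test, and 1 cell of MIA 2 held 74.4% of its UMIs. Gm26917 (-2.19, adjusted p 0.00513) had 68.9% of its UMIs in 1 cell of saline 3 male. Without these 3 cells 0 genes were called by edgeR, the smallest adjusted p was 0.473, and 392 had an unadjusted p under 0.05. Cenpf was then at 3.83 ± 1.61 (SE). At a sum of at least 4 UMIs, Cenpf (2.21), Mki67 (0.39) and Ube2c (1.14) were not called by edgeR, and the 4 genes called were all lower, Gm26917 (-2.47) among them. DESeq2 called Il1b alone, and so no gene outside the rule. Without the shared barcodes 4 genes were called, Gm26917 (-0.41) no longer, while Mki67 (13.03) and Ube2c (12.97) then depend on the prior count.

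The same rule found far more cells in the embryonic libraries, in 961 microglia at E13 and 1878 at E15. In saline the share was 8.41% ± 2.40 (SD, n = 3) at E13, 7.10% ± 4.84 (n = 3) at E15 and 0.431% ± 0.215 (n = 4) at P14. Embryonic cells were deeper, with a median of 7860 to 24493.5 UMIs against 3682 to 6787 at P14. With every cell thinned to 2000 UMIs the shares were 0.495% ± 0.284, 1.24% ± 1.06 and 0.158% ± 0.051. The ages kept the order of embryonic above P14 in the means, but the shares of libraries overlapped at matched depth. The lowest thinned share in saline was 0.180% at E13 and 0.263% at E15, while P14 reached 0.206% in saline and 0.296% in MIA. By the rule scaled to depth the lowest saline share at E15 was 0.391%, below the 0.482% of saline 2 at P14. Under MIA the unthinned shares were 7.91%, 10.6% and 0.637%. The balance of the 2 chemokines also differed with age. The ratio of Ccl4 to Ccl3 UMIs over all microglia of a library was 0.244 to 0.380 at E13, 0.401 to 0.633 at E15 and 0.666 to 1.65 at P14, with no overlap between ages. In the cells chosen by the rule it was 0.260 to 0.453, 0.482 to 0.711 and 1.33 to 4.27. In cells chosen by the rule scaled to depth it was 0.518 to 1.38 at E13 and 0.764 to 1.04 at E15, which overlapped, and 1.42 to 4.18 at P14. In cells chosen after thinning, E13 libraries reached 3.71 and E15 libraries were at 0.982 to 1.70, and both overlapped with the 1.44 to 6.10 of P14. After thinning, the saline ratio over all microglia was 0.219 to 0.347, 0.437 to 0.604 and 0.697 to 1.85. The E13 libraries MIA 1 and MIA 2 reached 0.827 and 1.13, so that the ages then overlapped. Unthinned they were at 0.358 and 0.318. After thinning, the 2 cells chosen in each held 35 and 26 Ccl4 UMIs, so the overlap rests on few cells. These values are a description, as the rule used both genes.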

How the data were processed

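The authors deposited raw UMI counts per gene and barcode for each library, with no normalization; the file headers name Cell Ranger 3.1.0 and the labels name mm10, while the study's methods give another version of the software. Counts of the 6 sorted P14 libraries were read as deposited (numpy 2.4.6 and pandas 2.3.3 in Python 3.11.15), and libraries, grouped by the labels, were the replicates. The 12 embryonic libraries were used for 1 description across ages, and the nuclei were not analysed here. UMIs in cells numbered 22187944 to 32527293 per P14 library, and 72252 to 299013 in the Ccl3 and Ccl4-high cells.

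The group, its rule and the gene lists were chosen with earlier results of these data known. For the profile, UMIs were summed per library and set of cells, and the log2 ratio of CPM + 1 was taken within each library, for genes with a mean of at least 10 CPM in either set. Genes are named when they are among the 25 highest or 12 lowest mean ratios at 50 CPM or more with 1 direction in 6 of 6 libraries, in the fixed lists, or called (the 5 smallest p where fewer than 5 were called). MIA and saline were compared by edgeR 4.0.16 (R 4.3.3; quasi-likelihood test, TMM, filterByExpr by group, Benjamini-Hochberg over all genes tested, threshold 0.05), with DESeq2 1.42.0 as an alternative, and shares of cells by exact permutation over the libraries, two-sided (scipy 1.17.1). The study tested sums per sample and inferred sex with sex and sequencing batch as covariates, and no batch was given in the labels used here. The edgeR script was tested on simulated data. Doublets were scored with Scrublet in scanpy 1.11.5 at 0.8% per 1000 cells and kept. Promoter windows of 1 chromosome were not used, and some genes that the naming rule picks are not reported here. The sources used here do not say whether the libraries come from separate litters, so p-values measure the spread between these libraries, which may be technical in part.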

Additional observations from a re-analysis of the deposited data

Results flagged for a closer look

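Of 47 groups of 4 to 6 library values checked, 5 had 1 library far from the rest, where chance alone marks about 1 in 20. Among the saline libraries, saline 2 had a share of Ccl3 and Ccl4-high cells of 0.750%, above the other 3. The log2 ratio of Csf1 to other microglia was lowest in saline 1, at 2.51. Armc3 was lowest in saline 1 (-6.44), and Tmem52 (-6.14) and Abl1 (-6.48) were lowest in saline 3 female, each in a library with 0 UMIs of that gene in the group.

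In 5 genes the response to MIA differed between the Ccl3 and Ccl4-high cells and other microglia by the edgeR interaction test. The log2 values, group minus other microglia, were 6.16 for Cenpf, 4.12 for Mki67, 4.76 for Ube2c, 14.10 for Il1b and -2.19 for Gm26917. The value for Il1b depends on the prior count, as all 4 saline libraries were at 0. As a gene of the rule it is a description and no test. No called gene was left without the 3 cells that held most of the UMIs of these genes.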

How the results depend on the processing

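The share of Ccl3 and Ccl4-high cells kept its direction in 12 of 12 alternatives for MIA against saline (0.107 to 0.414 percentage points, and 0.0523 to 0.359 when 1 library was left out) and in 8 of 8 for sex (0.0546 at 16 UMIs, chosen after the data were seen, to 0.465 at 4 UMIs, and 0.0403 to 0.341 when 1 was left out). Neither exact test could pass 0.05, so their p says nothing of stability. The unthinned difference in saline share was 7.97 percentage points between E13 and P14 (6.76 to 9.16 when 1 library was left out) and 6.67 between E15 and P14 (4.08 to 8.88). It was 0.725 for E13 and 2.05 for E15 by the rule scaled to depth, and 0.336 for E13 and 1.09 for E15 in cells thinned to 2000 UMIs.

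Genes at least 2-fold higher numbered 40 to 74 under the alternatives and 64 to 90 when 1 library was left out (65 without MIA 2), 90 without saline 1, where 5 libraries had to pass in place of 6. Genes at least 2-fold lower numbered 7 at a sum of at least 4 UMIs, 52 at 16 UMIs, 38 by the depth rule, 7 at a pseudocount of 10 CPM, 268 with no filter, and 24 to 40 when 1 library was left out (26 without saline 3 female). Of 592 ratios of named genes recomputed, 567 moved by less than the spread between libraries, 25 moved by more and 0 reversed. These genes were picked for extreme ratios with 1 direction in 6 of 6 libraries, the genes Ccl3 and Ccl4 of the rule among them. Their means therefore could not reverse when 1 library was left out or at another pseudocount. The filters on CPM do not enter the ratio at all. These counts are thus no measure of stability.

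For MIA within the group, 17 genes were called with no filter on low counts, 1 with the female and male libraries of saline 3 joined, and 0 to 4 when 1 library was left out (4 without saline 1, MIA 1 or MIA 2; where 1 MIA library was left, it is assumed to vary like the saline ones). With the replicate number as a block, 0 were called. Only 2 numbers are shared, with correlations of the deviations of 0.113 and 0.0457. The labels tie these libraries by the number alone, while saline 1 and MIA 1 also share 114 barcodes. For the interaction, DESeq2 called 1 gene (Il1b, of the rule), 0 were called without the 3 cells named, and 1 to 8 when 1 library was left out (2 without saline 3 female, 1 without MIA 1, again Il1b, 8 without MIA 2). When 1 library was left out, Mki67 was at -6.63 (without MIA 1) to 4.79 and Ube2c at -6.20 (without MIA 1) to 13.62 (without saline 3 male), with 5.45 without MIA 2, and without the 3 cells Mki67 was at -7.77. Each negative value comes from MIA libraries with 0 UMIs of the gene, so it depends on the prior count and is no measured reversal. The cause of the other changes was not tested, except that removing cells removes their UMIs. The removal of cells and of shared barcodes was chosen after the data were seen. With 15 to 39 cells per library, low genes were limited by depth.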
